A study of Arabidopsis thaliana with 6 samples.

Results

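The WRKY genes encode a family of plant transcription factors, and 57 of them, listed by locus identifier, were followed among the 32833 genes counted in each library. RefSeq gives a WRKY name or synonym to 72 Arabidopsis loci, and the 15 outside the list were not analysed here. The list was drawn up by name and not by any value in these data, although earlier results of the same libraries were known when it was chosen. All 57 locus identifiers were found in the count tables and in the RefSeq annotation.

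The study compared transcriptomes of Arabidopsis plants that share the Col-0 background. LNJ-OX plants overexpress LITTLE NINJA, a short synthetic protein cut from AFP2, a relative of the jasmonic acid signaling repressor NINJA. Its promoter was a tandem cauliflower mosaic virus 35S promoter, which drives expression in most tissues, and the sources used here do not say which line or how many lines were sequenced. The jazD plants are a decuple mutant in JAZ genes, whose products repress jasmonic acid responses, and Col-0 is the wild type. Each of the 3 genotypes had 2 libraries from untreated, soil-grown plants of 21 days without roots, kept in long days, whereas the published methods name leaves at a slightly younger age. In such bulk tissue fewer cells of a type and less RNA per cell cannot be told apart. The methods call the libraries biological replicates without saying whether plants were pooled, so the spread between the 2 libraries is the whole error available.

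WRKY proteins bind DNA through a domain that carries a conserved heptapeptide followed by a zinc finger, and most of them recognise the W-box, a short element in the promoters of defence genes, of other WRKY genes and often of their own gene. Many are switched on within minutes of pathogen perception, through MAP kinase cascades, or later by salicylic acid, the hormone of resistance against biotrophic pathogens that often opposes jasmonic acid. Others act in leaf senescence, phosphate supply, trichome and seed coat formation or flowering.

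The family was ordered by its structural groups, which were checked against the RefSeq coding sequences. The 10 group I genes encode 2 heptapeptides each, and the other 47 encode 1. The 9 group III proteins have the C2HC zinc finger, 47 have the C2H2 form, and for WRKY36 no zinc finger pattern was found. The annotation notes name a group for 37 genes and differ from this order for 2 of them, WRKY23 and WRKY45, which they place in group I although each encodes a single heptapeptide. The coding bases of the heptapeptide are shown for genes on which the results turn, with the sixth codon in capitals, because this codon separates WRKY50 and WRKY51, in which it encodes lysine, from the other 55 genes, in which it encodes glutamine.
WRKY46: tggagaaaatatgggCAAaaa
WRKY38: tggaggaaatatggtCAAaag
WRKY40: tggaggaaatatggaCAGaaa
WRKY45: tggaggaagtacggcCAAaaa
WRKY50: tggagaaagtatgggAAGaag
WRKY51: tggaggaagtatggcAAGaaa

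Total counts were 10164591 to 15003290 per library, 21374 genes passed the filter on low counts, and replicates correlated at r = 0.952 to 0.972 across genes on the log2 scale. Levels are given in CPM, the read count of a gene scaled to a common library total after TMM normalisation. The genotype labels were borne out by their genes. AFP2, part of which is in the transgene, had 63.5 and 49.998 CPM in LNJ-OX and 8.19 and 10.99 CPM in Col-0. JAZ1, JAZ2 and JAZ6 were at 2.31 to 5.24 CPM in jazD and at 20.1 to 94.0 CPM in Col-0. Transcripts of other cells and conditions moved with genotype too. Summed over 11 genes that respond fast to touch and handling, the level was 660 and 600 CPM in LNJ-OX, 309 and 287 CPM in jazD, and 178 and 204 CPM in Col-0, none of the 11 being at 0 in both libraries of a genotype. TCH3 alone had 401 and 372 CPM in LNJ-OX, 159 and 143 CPM in jazD, and 79.3 and 103 CPM in Col-0. Of the 9 genes tested, 3 were called higher in LNJ-OX than in Col-0 and 0 in jazD. Of all genes 0.837% and 0.440% were. Pollen markers summed to 3.09 and 34.1 CPM in LNJ-OX, 8.28 and 14.0 CPM in jazD, and 127 and 83.9 CPM in Col-0. Floral organ markers summed to 42.0 and 90.4 CPM in LNJ-OX, 19.5 and 28.5 CPM in jazD, and 64.6 and 86.1 CPM in Col-0. The 6 root markers summed to 46.7 and 26.6 CPM in LNJ-OX, 99.5 and 173 CPM in jazD, and 10.5 and 23.3 CPM in Col-0. Most of this was PYK10, a beta-glucosidase of ER bodies, which was called higher in jazD than in Col-0 (9.22-fold, adjusted p = 0.00458, edgeR), whereas the iron transporter gene IRT1 was lower in jazD (log2 fold change -3.39, adjusted p = 0.0428, edgeR). The root hair and root tip markers EXPA7, LRX1 and PLT1 were at 0 in every LNJ-OX and Col-0 library, with 1 count of EXPA7 in 1 jazD library. Another root hair marker, COBL9, had 4 and 9 counts in LNJ-OX, 1 and 2 counts in jazD, and 7 and 3 counts in Col-0. The 4 leaf mesophyll markers were high in all 6 libraries, at a sum of 25882 to 43002 CPM. The part of touch response, flowers, pollen or root in the WRKY values was not tested.

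The WRKY genes took 0.149% and 0.122% of all counts in LNJ-OX, 0.08001% and 0.0924% in jazD, and 0.07999% and 0.0637% in Col-0. Both LNJ-OX libraries thus lay above every other library, and the jazD libraries lay above the Col-0 libraries by a margin close to 0. Per kilobase of exon, WRKY70, which activates salicylic acid responses and represses jasmonic acid responses, was the most abundant member in each genotype. Its mean level was 168 CPM per kb in LNJ-OX, 77.7 CPM per kb in jazD and 87.2 CPM per kb in Col-0, which was 21.3%, 15.5% and 21.0% of the summed level of the family in those genotypes. No other member overlapped with it in any genotype. WRKY46 was the second most abundant member in LNJ-OX at 54.5 CPM per kb, next to WRKY15 at 52.3 CPM per kb with overlapping libraries, whereas it ranked 19 in jazD at 11.02 CPM per kb and 11 in Col-0 at 11.4 CPM per kb. The second place was held by WRKY15 at 29.1 CPM per kb in jazD, and by WRKY1 at 22.6 CPM per kb in Col-0, each without overlap with the next member.

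**Figure D1:**
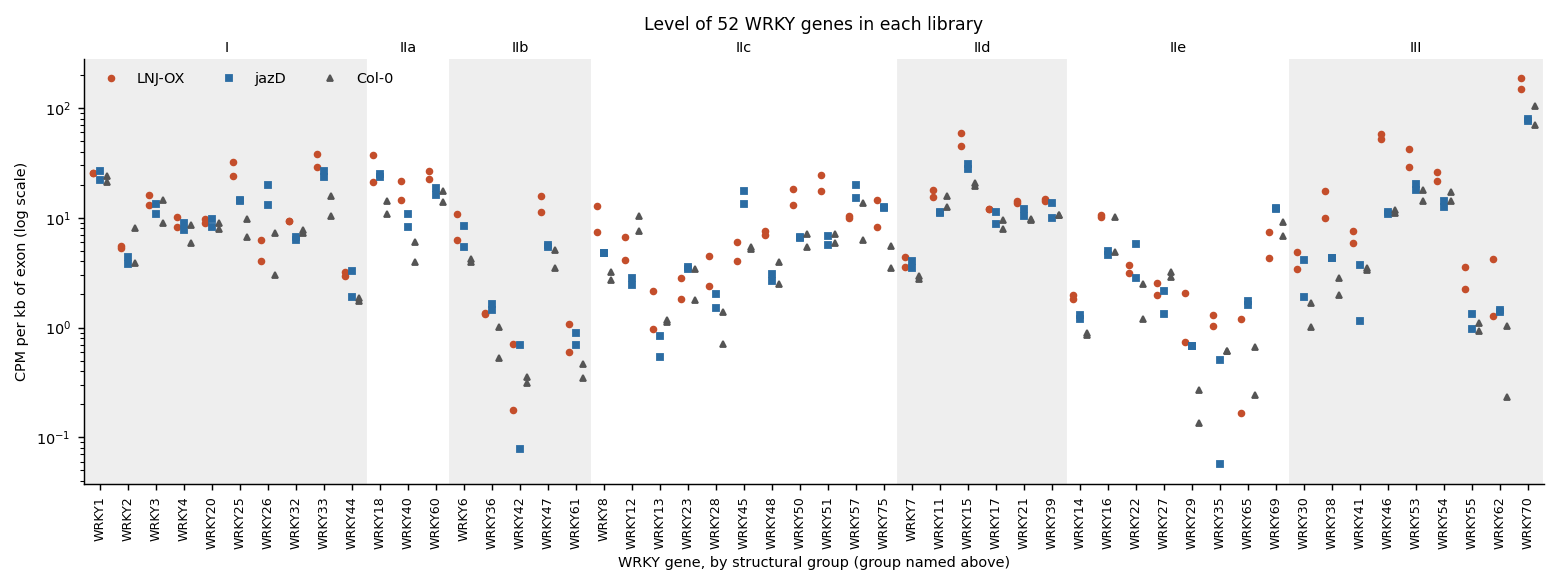
Level of the 52 WRKY genes that passed the filter, in CPM per kilobase of exon on a log scale, grouped by structural group, with 1 point per library for LNJ-OX (circles), jazD (squares) and Col-0 (triangles). WRKY70 lies above all other members in each genotype, and the LNJ-OX points lie highest in most of group III.

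Of the 57 members, 52 passed the filter and could be tested. Each of them reached the filter level of 0.872 CPM in more than 1 genotype, with WRKY29 and WRKY42 reaching it in 2 and the other 50 in all 3, so none entered the test through a single genotype. The 5 others, WRKY9, WRKY31, WRKY43, WRKY49 and WRKY72, had too few counts. WRKY31 had 64 and 6 counts in LNJ-OX, 5 and 5 counts in jazD and 3 and 9 counts in Col-0, so that its 4.21 CPM in the first LNJ-OX library was the highest value of an untested member.

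In LNJ-OX the family stood mostly above the wild type. Of the 52 members tested, 6 rose (adjusted p below 0.01 and more than 2-fold). These were WRKY46 (AT2G46400, chr2:19043411-19044955), WRKY38 (AT5G22570, chr5:7495455-7496990), WRKY25 (AT2G30250, chr2:12903208-12905338), WRKY40 (AT1G80840, chr1:30383561-30385499), WRKY51 (AT5G64810, chr5:25908247-25909881) and WRKY15 (AT2G23320, chr2:9924886-9926372), with positions from TAIR10.1. None fell, with edgeR, DESeq2 or limma-voom. The share of all tested genes called was 0.837% for higher and 0.585% for lower, against 11.5% of the WRKY members called higher. At adjusted p below 0.05, 12 members were higher and 0 were lower, where 2.51% and 2.20% of all genes were called. Both LNJ-OX libraries lay above both Col-0 libraries for 38 members (73.1%) and below for 2, with 12 overlapping, where these shares were 24.0% and 23.9% of all genes. The median log2 fold change of the members was 0.85, beside -0.01 for all genes tested, and 46 of 52 values were positive. The number called changed when any 1 library was left out, also a jazD library, which is not part of this contrast. Such a fit leaves 1 library in a genotype and less to estimate the spread from. It therefore cannot tell whether a call rested on that library. The median log2 fold change of the members stayed between 0.75 and 1.05 in these fits. The p-values come from quasi-likelihood F-tests in edgeR and were adjusted by Benjamini-Hochberg, and 25 members, all of them higher in LNJ-OX, had an unadjusted p below 0.05, where 8.97% of all genes were higher and 9.40% lower.

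**Figure D2:**
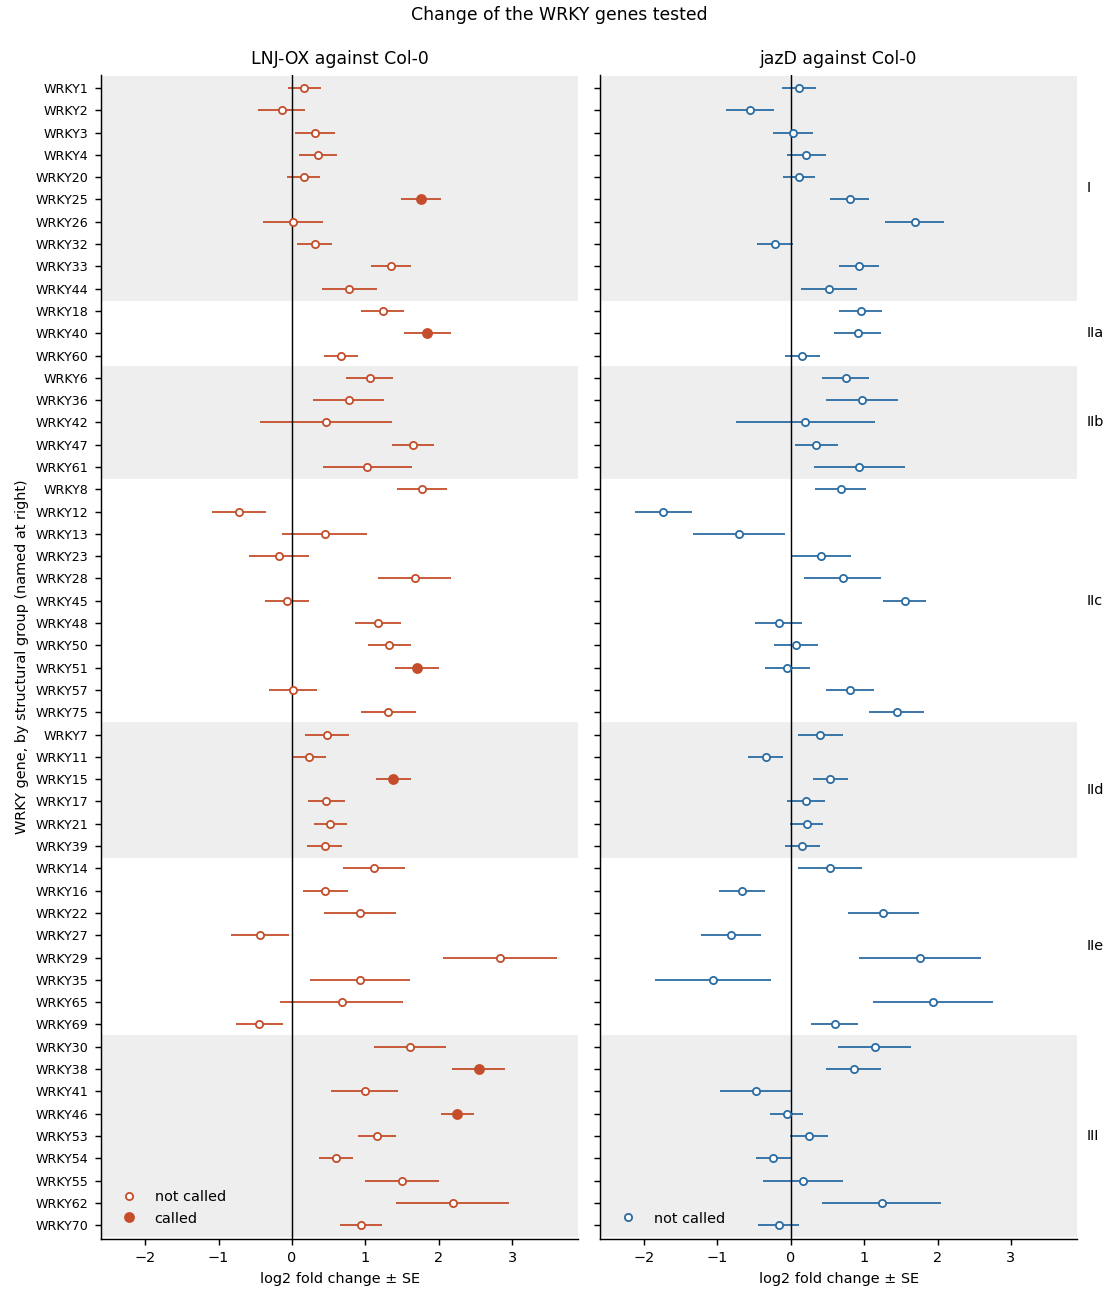
Log2 fold change (points) and its SE (bars) of the 52 tested WRKY genes for LNJ-OX against Col-0 (left) and jazD against Col-0 (right), by structural group. Filled points passed the test, 6 at left and 0 at right, and all 9 genes of group III lie above 0 at left.

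Group III had the highest median change of the structural groups. All 9 members had both LNJ-OX libraries above both Col-0 libraries, 2 of them rose, and the median log2 fold change was 1.49. WRKY46, which acts with WRKY53 and WRKY70 in basal resistance to bacteria, had 77.7 and 70.0 CPM in LNJ-OX, 14.6 and 15.3 CPM in jazD, and 15.9 and 15.03 CPM in Col-0. The LNJ-OX libraries stood far apart from the other 4, which overlapped. The rise was 4.77-fold over Col-0 (log2 fold change 2.25 ± 0.23 SE, adjusted p = 0.00126, edgeR), and the call was lost in 1 of 14 alternative fits, without the first Col-0 library (adjusted p = 0.0102). WRKY38, a repressor of basal defence that is induced downstream of the salicylic acid receptor NPR1, had 23.1 and 12.9 CPM in LNJ-OX, 5.56 and 5.66 CPM in jazD, and 2.58 and 3.66 CPM in Col-0. Here the 3 genotypes did not overlap and jazD lay between the others. WRKY38 was 5.82-fold higher in LNJ-OX than in Col-0 (log2 fold change 2.54 ± 0.37 SE, adjusted p = 0.00513, edgeR), a call lost without either Col-0 library or the first LNJ-OX library (adjusted p = 0.0159 to 0.0333).

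The other group III members did not pass. WRKY62, the closest partner of WRKY38, had 69 and 16 counts (4.54 and 1.38 CPM) in LNJ-OX, 15 and 16 counts (1.57 and 1.51 CPM) in jazD, and 4 and 12 counts (0.252 and 1.13 CPM) in Col-0, a log2 fold change of 2.19 ± 0.77 SE (adjusted p = 0.150, edgeR). The first LNJ-OX library carried most of this difference, and without it the log2 fold change was 1.08, while it was 3.52 without the second Col-0 library. WRKY70 had 275 and 218 CPM in LNJ-OX, 117 and 111 CPM in jazD, and 102 and 154 CPM in Col-0, and WRKY53, an activator of leaf senescence genes, had 63.9 and 44.2 CPM in LNJ-OX, 27.1 and 30.8 CPM in jazD, and 21.4 and 27.3 CPM in Col-0. In both genes the LNJ-OX libraries were above the other 4. The log2 fold change over Col-0 was 0.95 ± 0.28 SE for WRKY70 (adjusted p = 0.0958) and 1.15 ± 0.26 SE for WRKY53 (adjusted p = 0.0290), by edgeR. For WRKY54, which acts with WRKY70, for the flagellin-responsive WRKY41, and for WRKY30 and WRKY55 the log2 fold changes were 0.60 to 1.61, and none had an adjusted p below 0.05.

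Of the genes with the lysine codon shown above, both in group IIc, WRKY51 rose in LNJ-OX and WRKY50 passed at the looser threshold only. WRKY51, needed with WRKY50 for the repression of jasmonic acid responses when salicylic acid accumulates, had 23.2 and 16.4 CPM in LNJ-OX, 5.35 and 6.41 CPM in jazD, and 5.54 and 6.67 CPM in Col-0. Its rise over Col-0 was 3.26-fold (log2 fold change 1.70 ± 0.30 SE, adjusted p = 0.00958, edgeR), close to the threshold and lost in 8 of 14 alternative fits, among them those without either Col-0 library, either jazD library or the first LNJ-OX library (adjusted p up to 0.0902). WRKY50 had 19.8 and 14.0 CPM in LNJ-OX, 7.03 and 7.16 CPM in jazD, and 5.86 and 7.70 CPM in Col-0, a log2 fold change of 1.33 ± 0.30 SE (adjusted p = 0.0290, edgeR). In both genes the jazD and Col-0 libraries overlapped and the LNJ-OX libraries stood above them. WRKY8, known from viral defence, and WRKY48, a repressor of basal defence, had log2 fold changes of 1.77 (adjusted p = 0.0150) and 1.17 (adjusted p = 0.0597). WRKY28, an activator of the salicylic acid synthesis gene ICS1, was at 6.45 and 3.44 CPM in LNJ-OX and at 2.02 and 1.03 CPM in Col-0 (log2 fold change 1.67, adjusted p = 0.0958, edgeR, and 2.27 without the first Col-0 library).

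Groups I, IIa and IId each had 1 member that rose. WRKY25, a gene linked to the MPK4 kinase pathway that also acts in heat tolerance, had 57.4 and 42.2 CPM in LNJ-OX, 26.0 and 25.4 CPM in jazD, and 17.5 and 11.8 CPM in Col-0, with no overlap between genotypes. It was 3.39-fold higher in LNJ-OX than in Col-0 (log2 fold change 1.76 ± 0.27 SE, adjusted p = 0.00594, edgeR). Its relative WRKY33, which controls camalexin synthesis and resistance to Botrytis, had 76.6 and 58.9 CPM in LNJ-OX, 47.4 and 53.8 CPM in jazD, and 32.1 and 20.9 CPM in Col-0, again in that order without overlap, with a log2 fold change of 1.35 ± 0.27 SE for LNJ-OX (adjusted p = 0.0180, edgeR). The other 8 members of group I had log2 fold changes of -0.14 to 0.78, and the group median was 0.31.

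Group IIa holds the 3 interacting repressors WRKY18, WRKY40 and WRKY60, which act in basal defence and abscisic acid responses. WRKY40 had 28.8 and 19.2 CPM in LNJ-OX, 14.3 and 10.9 CPM in jazD, and 8.00 and 5.26 CPM in Col-0, in separate ranges. It was 3.59-fold higher in LNJ-OX than in Col-0 (log2 fold change 1.84 ± 0.32 SE, adjusted p = 0.00905, edgeR). WRKY18 and WRKY60 had log2 fold changes of 1.23 (adjusted p = 0.0366) and 0.67 (adjusted p = 0.151). In group IId, whose members bind calmodulin, WRKY15, a gene of leaf growth and salt responses, had 76.4 and 57.8 CPM in LNJ-OX, 39.2 and 35.6 CPM in jazD, and 26.7 and 24.8 CPM in Col-0. It was 2.60-fold higher in LNJ-OX than in Col-0 (log2 fold change 1.38 ± 0.24 SE, adjusted p = 0.00895, edgeR), and the 5 others of its group had log2 fold changes of 0.23 to 0.52. The calls of WRKY25, WRKY40 and WRKY15 were lost in 7, 8 and 8 of 14 alternative fits. Among these were the fits without either Col-0 library, either jazD library or the first LNJ-OX library.

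No member of groups IIb and IIe passed the test with edgeR. An unadjusted p below 0.05 was found for 2 of 5 members tested in group IIb and 2 of 8 in group IIe, where 18.4% of all genes had one. In group IIb, 4 of the 5 members tested had both LNJ-OX libraries above Col-0, and WRKY47 came nearest to the threshold, with 30.9 and 21.8 CPM in LNJ-OX and 9.95 and 6.76 CPM in Col-0 (log2 fold change 1.65 ± 0.29 SE, adjusted p = 0.01001, edgeR). In group IIe, WRKY29, which with WRKY22 lies downstream of flagellin perception, had the highest log2 fold change of the family, 2.84 ± 0.78 SE (adjusted p = 0.0665, edgeR), on 44 and 12 counts in LNJ-OX, 9 and 10 counts in jazD, and 3 and 4 counts in Col-0. It was 1.90 without the first LNJ-OX library, under the values of WRKY38 and WRKY46 above, and 3.37 without the second. Only WRKY12 and WRKY27 had both LNJ-OX libraries below both Col-0 libraries. WRKY12, a repressor of secondary wall formation in stem pith that also promotes flowering, had 4.21 and 6.88 CPM in LNJ-OX and 7.69 and 10.6 CPM in Col-0, and WRKY27 had 3.16 and 4.04 CPM in LNJ-OX and 5.10 and 4.60 CPM in Col-0. Their log2 fold changes were -0.72 ± 0.36 SE (adjusted p = 0.329) and -0.44 ± 0.40 SE (adjusted p = 0.615), by edgeR.

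**Figure D3:**
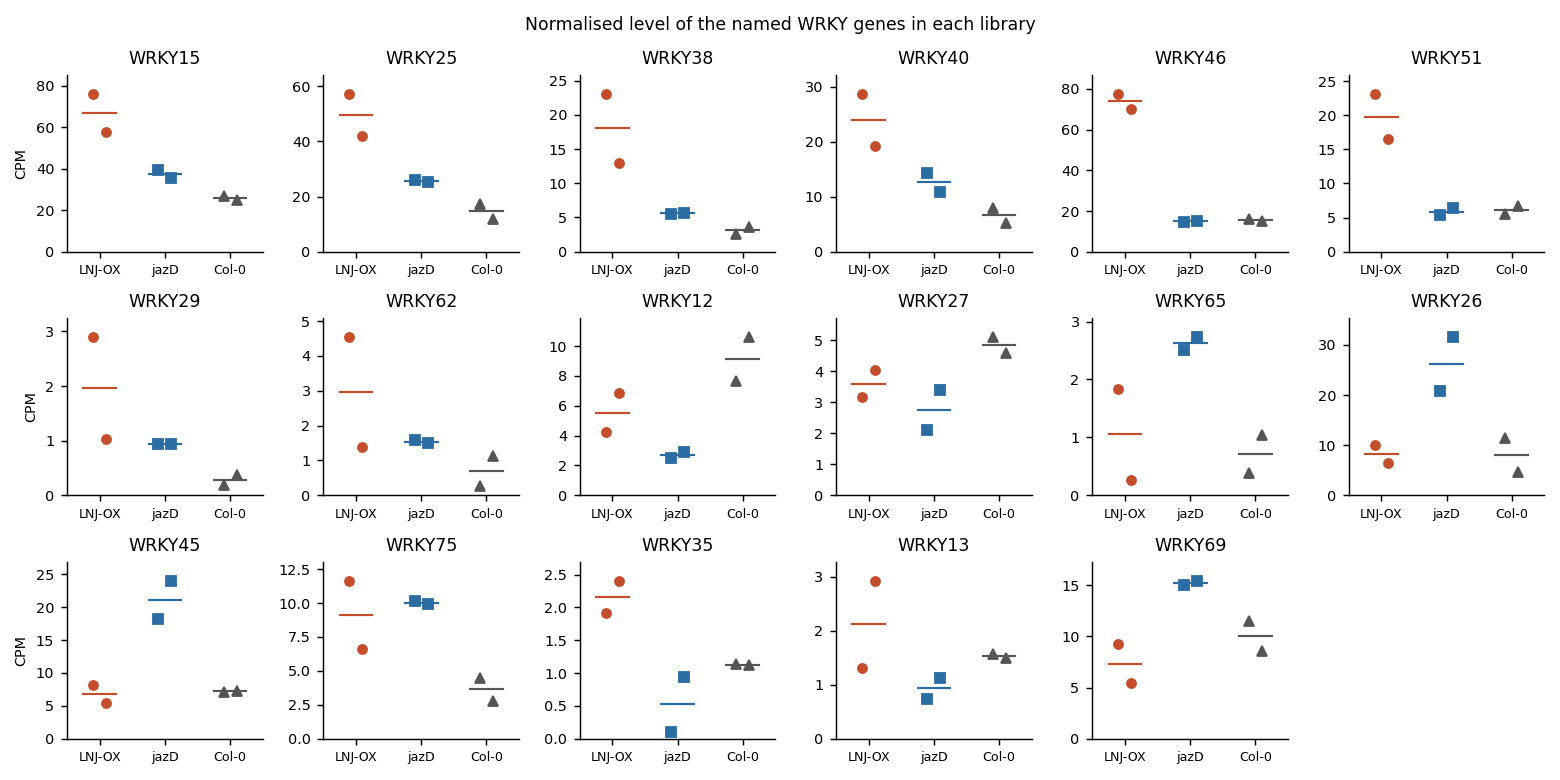
CPM of 17 named WRKY genes in each library (points) with the mean of the 2 libraries (lines), from left to right in LNJ-OX, jazD and Col-0, each panel starting at 0. WRKY46 and WRKY51 are high in LNJ-OX alone, WRKY26 and WRKY45 are high in jazD alone, and WRKY12 is lowest in jazD.

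In jazD no member passed the test against Col-0, in either direction, where 0.440% of all genes were called higher and 0.674% lower. With edgeR, 15 of the 52 members had an unadjusted p below 0.05, 14 higher and 1 lower, where these shares were 6.26% and 8.59% of all genes. Of the other tools, limma-voom called 0 in either direction, and DESeq2 called 2 higher and 1 lower. At adjusted p below 0.05 there were 2 members higher, WRKY45 and WRKY26, and 1 lower, WRKY12, where 1.41% and 2.66% of all genes were called. Both jazD libraries lay above both Col-0 libraries for 26 members (50%) and below for 7 (13.5%), with 19 overlapping, where the shares over all genes were 19.5% and 21.1%. The median log2 fold change was 0.30, beside 0.01 for all genes.

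WRKY45 (AT3G01970), an activator of the phosphate transporter gene PHT1;1 that also promotes senescence, had 8.16 and 5.51 CPM in LNJ-OX, 18.2 and 24.0 CPM in jazD, and 7.12 and 7.32 CPM in Col-0. Both jazD libraries were above the other 4, which overlapped. Its log2 fold change for jazD over Col-0 was 1.55 ± 0.30 SE (2.93-fold, adjusted p = 0.0160, edgeR), and the adjusted p ranged from 4.99e-05 to 0.148 over 14 alternative fits, 6 of which gave a call. WRKY26 (AT5G07100), which acts in heat tolerance with WRKY25 and WRKY33, had 9.94 and 6.37 CPM in LNJ-OX, 20.8 and 31.6 CPM in jazD, and 11.3 and 4.70 CPM in Col-0, a log2 fold change of 1.69 ± 0.40 SE for jazD (adjusted p = 0.0429, edgeR). The pattern was that of WRKY45, with jazD alone above, although the log2 fold change was 2.497 without the first Col-0 library and 1.21 without the second. WRKY75, another gene of phosphate starvation and senescence, was above Col-0 in both genotypes, at 11.7 and 6.63 CPM in LNJ-OX, 10.2 and 9.90 CPM in jazD, and 4.47 and 2.82 CPM in Col-0 (jazD log2 fold change 1.44 ± 0.38 SE, adjusted p = 0.0604, edgeR). WRKY65, a gene of low level, had 24 and 29 counts in jazD and 6 and 11 counts in Col-0 (log2 fold change 1.94 ± 0.82 SE, adjusted p = 0.288, edgeR), separate ranges with a wide error, and the log2 fold change was 1.36 without the first Col-0 library and 2.77 without the second. WRKY57, whose product is known to bind JAZ proteins and to restrain jasmonic acid-induced senescence, had 31.5 and 41.3 CPM in jazD and 28.2 and 13.1 CPM in Col-0, with the jazD libraries above the Col-0 libraries by little (log2 fold change 0.81 ± 0.33 SE, adjusted p = 0.268, edgeR, and 1.498 without the first Col-0 library).

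Among the members below Col-0, WRKY12 had 2.52 and 2.92 CPM in jazD, against 7.69 and 10.6 CPM in Col-0, a log2 fold change of -1.74 ± 0.39 SE (adjusted p = 0.0317, edgeR). Its jazD libraries were the lowest of all 6. The 5 floral organ markers were also below Col-0 in both jazD libraries, at log2 fold changes of -1.90 to -1.19, and the part of flowering stage in the WRKY12 value was not tested. WRKY13, which acts on flowering in the opposite direction, had 7 and 12 counts in jazD and 25 and 16 counts in Col-0, and WRKY35 had 1 and 10 counts in jazD and 18 and 12 counts in Col-0, with adjusted p of 0.727 and 0.651, the WRKY35 log2 fold change of -1.06 being -0.26 without the first jazD library and -3.31 without the second. WRKY27 had 2.097 and 3.39 CPM in jazD and 5.10 and 4.60 CPM in Col-0 (adjusted p = 0.416, edgeR). For these 3 genes the jazD libraries lay below the Col-0 libraries without passing the test.

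Set against each other, LNJ-OX and jazD differed in 1 member by the test, WRKY46, which was 4.95-fold higher in LNJ-OX (log2 fold change 2.31 ± 0.23 SE, adjusted p = 0.000438, edgeR). That call was lost without either jazD library (adjusted p = 0.0138 and 0.0146). No member was called lower with edgeR, although 2 were with DESeq2, and 23 members had an unadjusted p below 0.05, 19 higher and 4 lower, where 7.72% and 5.41% of all genes did. Over all genes, 0.449% were called higher and 0.332% lower. At adjusted p below 0.05, 4 members were higher in LNJ-OX (WRKY46, WRKY51, WRKY38 and WRKY47) and 1 was lower (WRKY45), where 1.31% and 0.753% of all genes were called. Both LNJ-OX libraries lay above both jazD libraries for 30 members (57.7%) and below for 7 (13.5%), where the shares over all genes were 25.5% and 25.0%, and the median log2 fold change was 0.49.

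The differences between these genotypes went in both directions for named members. WRKY51 and WRKY38 were higher in LNJ-OX than in jazD by log2 fold changes of 1.75 ± 0.30 SE (adjusted p = 0.0126) and 1.69 ± 0.35 SE (adjusted p = 0.0350). WRKY35, with 29 and 28 counts in LNJ-OX and 1 and 10 counts in jazD, had a log2 fold change of 1.98 ± 0.76 SE (adjusted p = 0.271), which was 1.18 without the first jazD library and 4.23 without the second. On the other side, WRKY45 was lower in LNJ-OX (log2 fold change -1.62 ± 0.30 SE, adjusted p = 0.0172), and WRKY26 had a value of nearly the same size (-1.68 ± 0.41 SE, adjusted p = 0.0637). For WRKY65 and WRKY69 the log2 fold changes were -1.27 ± 0.77 SE (adjusted p = 0.542) and -1.04 ± 0.32 SE (adjusted p = 0.152). The WRKY65 value was -3.29 without the first LNJ-OX library and -0.51 without the second. WRKY69 had 9.28 and 5.42 CPM in LNJ-OX and 14.996 and 15.5 CPM in jazD, so that jazD was above in both libraries.

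Ordered by known role, the 11 members linked to salicylic acid and NPR1 (WRKY18, 28, 38, 46, 50, 51, 53, 54, 60, 62 and 70) all had both LNJ-OX libraries above both Col-0 libraries, and 3 rose. Their medians, as log2 fold change over Col-0, were 1.33 for LNJ-OX and 0.16 for jazD, and in jazD 4 of the 11 lay above Col-0 in every library and 1 below. Of the 9 members of early pattern and MAP kinase responses (WRKY11, 17, 22, 25, 29, 30, 33, 40 and 41), 2 rose in LNJ-OX and 8 lay above Col-0 in every library. Their median was 1.35 in LNJ-OX and 0.91 in jazD, where 0 passed, 6 lay above and 1 lay below. The 4 phosphate-related members (WRKY6, 42, 45 and 75) had medians of 0.76 in LNJ-OX and 1.09 in jazD, with none passing (2 and 3 at an unadjusted p below 0.05). For the 5 senescence members (WRKY6, 45, 53, 57 and 75) the medians were 1.06 and 0.81, beside sums of 4 senescence markers of 518 and 386 CPM in LNJ-OX, 586 and 566 CPM in jazD, and 426 and 295 CPM in Col-0. SAG13 made up most of that sum in LNJ-OX and jazD. SAG12, the classical marker of leaf senescence, had both libraries of LNJ-OX and of jazD below Col-0. Its log2 fold changes were -1.53 (adjusted p = 0.150) and -1.89 (adjusted p = 0.0909), by edgeR. The other 3 markers, SAG13, SEN1 and ORE1, had positive log2 fold changes in both genotypes. For SEN1 these were 1.84 (adjusted p = 0.0242) in LNJ-OX and 1.70 (adjusted p = 0.0382) in jazD, by edgeR. SAG13 had 1.60 in jazD (adjusted p = 0.0231, edgeR), and its adjusted p in LNJ-OX was 0.0887. None of the 4 markers passed the test in either genotype. The 5 developmental members (WRKY2, 12, 13, 23 and 44) had medians of -0.14 in LNJ-OX and -0.55 in jazD, with none passing (0 and 1 at an unadjusted p below 0.05). WRKY44, needed for trichome and seed coat development, was the highest of these in LNJ-OX (log2 fold change 0.78, adjusted p = 0.306, edgeR). Of all genes tested, 24.0% had both LNJ-OX libraries above both Col-0 libraries and 23.9% below, and 0.837% were called higher. For jazD the shares above and below were 19.5% and 21.1%, with 0.440% called higher. An unadjusted p below 0.05 was reached by 18.4% of all genes in LNJ-OX and 14.9% in jazD. The comparisons with Col-0 share the Col-0 libraries, and the lists were chosen with earlier results known.

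Because WRKY proteins bind W-boxes in WRKY promoters, the hexamers TTGACC and TTGACT were searched on both strands from 250 bases before to 50 bases after each annotated gene start (RefSeq, TAIR10.1). They were present in 22 of 57 members (38.6%) and in 32.4% of the 27443 promoters of protein-coding genes. With 2 or more copies there were 11 members (19.3%), against 7.7% of these promoters, and the core TTGAC, which the hexamers contain, was present in 36 members (63.2%), against 50.5%. The 20 tested members with a hexamer had medians of 1.09 (LNJ-OX) and 0.75 (jazD) for the log2 fold change over Col-0, and 2 rose in LNJ-OX. For the 32 without, the medians were 0.67 (LNJ-OX) and 0.21 (jazD), and 4 rose in LNJ-OX. Of all 52 members tested 11.5% rose in LNJ-OX, and of all genes 0.837%. Whether members with and without a hexamer differed was not tested. A match describes the letters only and not a bound site. The windows of 4 genes are shown in the direction of the gene with each hexamer, or its reverse complement GGTCAA or AGTCAA, in capitals: WRKY15 rose in LNJ-OX and has 2, WRKY30 has 3, the most in the family, WRKY45 was high in jazD and has 2, and WRKY46, with the lowest adjusted p in LNJ-OX, has none. They lie at chr2:9924636-9924935 (plus strand), chr5:8154661-8154960 (minus strand), chr3:327363-327662 (minus strand) and chr2:19044906-19045205 (minus strand).
WRKY15: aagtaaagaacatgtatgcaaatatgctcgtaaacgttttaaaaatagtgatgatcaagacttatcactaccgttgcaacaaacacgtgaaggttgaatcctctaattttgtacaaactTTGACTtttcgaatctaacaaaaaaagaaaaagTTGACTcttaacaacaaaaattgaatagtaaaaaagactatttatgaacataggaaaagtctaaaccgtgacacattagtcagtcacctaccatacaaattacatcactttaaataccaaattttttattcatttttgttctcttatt
WRKY30: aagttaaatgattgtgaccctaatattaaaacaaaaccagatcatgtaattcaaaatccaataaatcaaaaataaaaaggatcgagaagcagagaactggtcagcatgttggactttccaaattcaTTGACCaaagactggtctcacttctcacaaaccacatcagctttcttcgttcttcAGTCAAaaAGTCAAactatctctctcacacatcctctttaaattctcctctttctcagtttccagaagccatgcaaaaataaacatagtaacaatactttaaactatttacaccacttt
WRKY45: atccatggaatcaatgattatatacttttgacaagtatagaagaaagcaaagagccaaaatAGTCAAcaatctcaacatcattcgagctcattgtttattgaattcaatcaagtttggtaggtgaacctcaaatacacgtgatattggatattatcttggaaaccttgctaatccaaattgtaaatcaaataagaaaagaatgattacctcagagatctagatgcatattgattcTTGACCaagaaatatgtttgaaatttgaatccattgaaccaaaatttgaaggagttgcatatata
WRKY46: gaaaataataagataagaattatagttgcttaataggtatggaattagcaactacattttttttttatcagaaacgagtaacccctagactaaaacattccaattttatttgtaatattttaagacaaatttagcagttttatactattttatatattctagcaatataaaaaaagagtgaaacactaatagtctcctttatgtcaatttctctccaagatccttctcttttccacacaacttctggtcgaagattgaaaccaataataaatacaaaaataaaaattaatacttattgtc

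**Figure D4:**
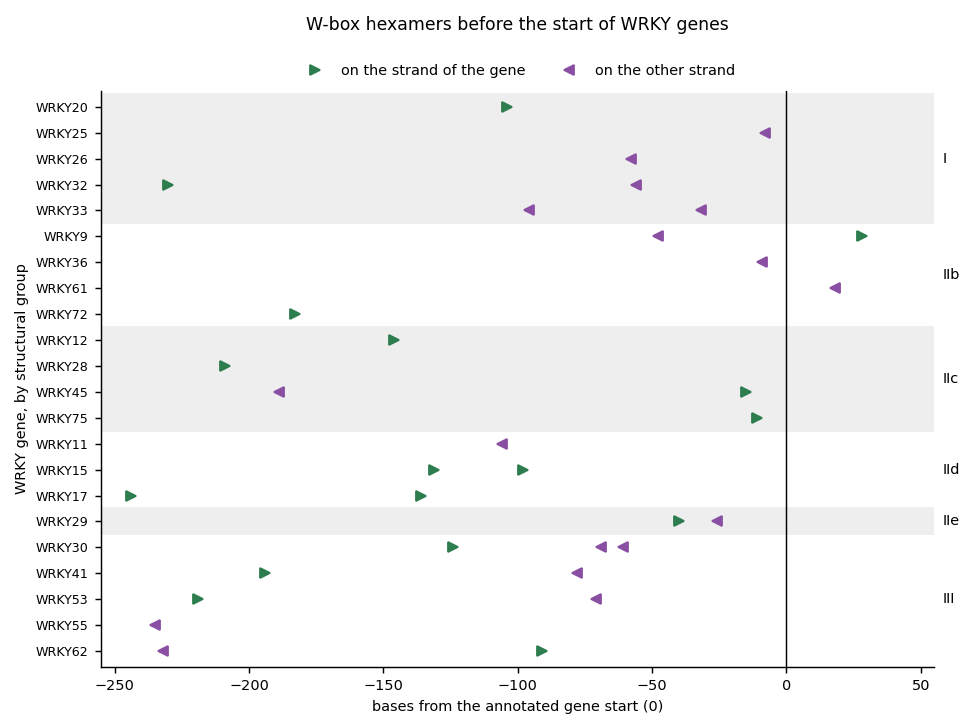
Positions of the W-box hexamers in the 22 WRKY genes that have one, as bases from the annotated gene start (0 on the horizontal axis) to the leftmost base of the hexamer, grouped by structural group. Right-pointing marks are on the strand of the gene and left-pointing marks on the other strand, and WRKY30 is the single gene with 3.

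Genes known to act with the family were followed as well. In the salicylic acid route, 4 of 5 genes rose in LNJ-OX against Col-0, and the same 4 were called higher against jazD, with none called in jazD against Col-0 (1 at an unadjusted p below 0.05). Over all genes, 0.837% were called higher in LNJ-OX against Col-0 and 0.449% against jazD. For jazD against Col-0, 14.9% had an unadjusted p below 0.05. CBP60G and SARD1, the activators of ICS1, had 162 and 141 CPM and 97.3 and 88.0 CPM in LNJ-OX, against 26.7 and 12.8 CPM and 23.9 and 23.2 CPM in Col-0. Their log2 fold changes were 2.93 ± 0.34 SE (adjusted p = 0.00193) and 1.98 ± 0.23 SE (adjusted p = 0.00193), by edgeR. The immune regulators EDS1 and PAD4 rose by 1.66 ± 0.26 SE (adjusted p = 0.00665) and 1.33 ± 0.23 SE (adjusted p = 0.00878) on the log2 scale, whereas NPR1, the salicylic acid receptor, did not pass (0.71, adjusted p = 0.116).

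Of 13 genes described as targets of WRKY proteins, 12 were tested. PHT1;1, named above with WRKY45, was not, at 20 and 2 counts in LNJ-OX, 4 and 1 counts in jazD, and 4 and 0 counts in Col-0. Of the 12 tested, 5 rose in LNJ-OX, where 0.837% of all genes did. None passed in jazD. There 7 had an unadjusted p below 0.05, 5 higher and 2 lower (PBS3 and SAG12), where these shares were 6.26% and 8.59% of all genes. ICS1, a gene of salicylic acid synthesis, had 137 and 132 CPM in LNJ-OX, 30.6 and 25.1 CPM in jazD, and 19.2 and 24.3 CPM in Col-0 (LNJ-OX log2 fold change 2.63 ± 0.25 SE, adjusted p = 0.00109, edgeR). PBS3, of the same pathway, and FRK1, a marker of flagellin signaling, had log2 fold changes of 1.79 (adjusted p = 0.00510) and 2.43 (adjusted p = 0.00567) in LNJ-OX. The camalexin genes CYP71A12 and PAD3 had values of 3.08 (adjusted p = 0.00996) and 1.998 (adjusted p = 0.00613). In jazD, CYP71A13 and ACS6 were higher than in Col-0 at the looser threshold only. Their log2 fold changes were 1.69 (adjusted p = 0.0447) and 1.32 (adjusted p = 0.0209) in jazD, by edgeR. In LNJ-OX they were 2.31 (adjusted p = 0.0104) and 0.39 (adjusted p = 0.483). The salicylic acid marker PR1 spread widely, at 1105 and 367 CPM in LNJ-OX, 227 and 136 CPM in jazD, and 69.7 and 172 CPM in Col-0, and did not pass (log2 fold change 2.61, adjusted p = 0.0242, edgeR).

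Among 10 genes of the MAP kinase cascade 1 rose in LNJ-OX, where 0.837% of all genes did. This was MPK11, with 32.1 and 24.0 CPM in LNJ-OX, 5.98 and 6.03 CPM in jazD, and 5.48 and 3.66 CPM in Col-0 (log2 fold change 2.60 ± 0.30 SE, adjusted p = 0.00193, edgeR). MPK3 and MPK6, kinases that phosphorylate WRKY33, had values of 0.90 (adjusted p = 0.0907) and 0.28 (adjusted p = 0.577). Of 8 genes for VQ proteins, which bind WRKY proteins, 7 were tested and none passed in either genotype. In each genotype 2 of them had an unadjusted p below 0.05, where 18.4% (LNJ-OX) and 14.9% (jazD) of all genes did. SIB1 and SIB2, partners of WRKY33, were highest in different genotypes: SIB1 had 56.8 and 46.5 CPM in LNJ-OX, 30.2 and 24.7 CPM in jazD, and 21.5 and 27.5 CPM in Col-0, whereas SIB2 had 25.6 and 26.0 CPM in LNJ-OX, 62.4 and 51.4 CPM in jazD, and 23.2 and 27.6 CPM in Col-0. JAV1, a repressor of jasmonic acid responses, had log2 fold changes of 1.09 in LNJ-OX (adjusted p = 0.0440) and 1.06 in jazD (adjusted p = 0.0569) over Col-0.

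**Figure D5:**
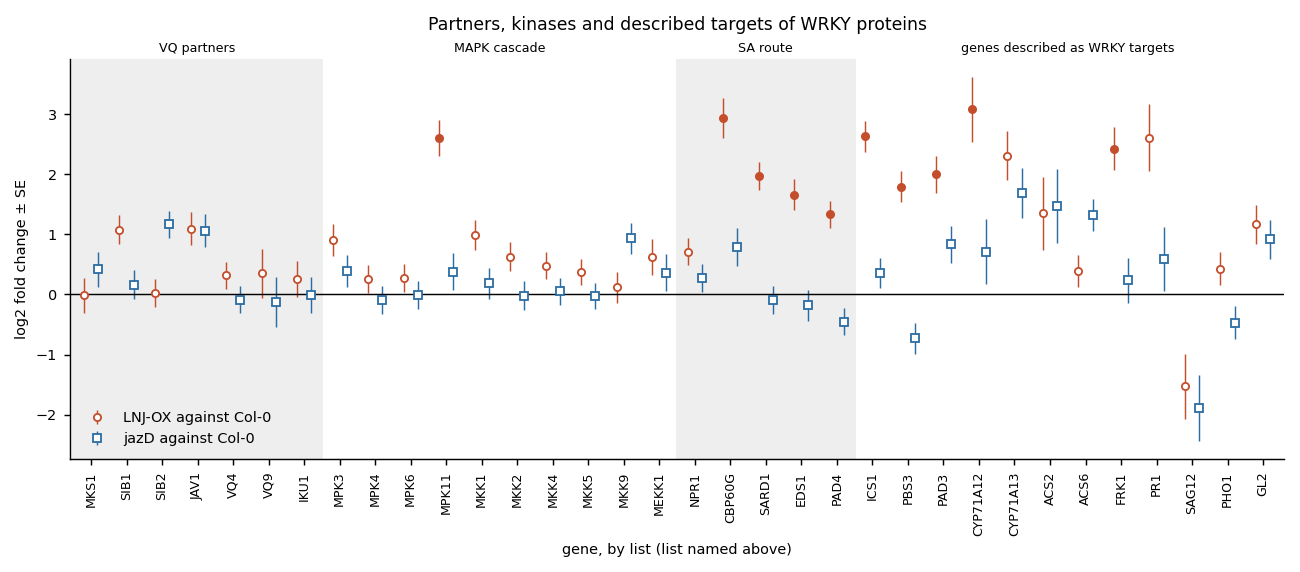
Log2 fold change (points) and SE (bars) of tested genes that act with WRKY proteins, by list, for LNJ-OX against Col-0 (circles) and jazD against Col-0 (squares), with filled points where the gene passed the test. In the salicylic acid route 4 of 5 circles are filled and no square is.

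For 11 members (WRKY1, 2, 4, 9, 29, 33, 40, 41, 53, 61 and 69) exons overlap an annotated gene on the other strand, and since the strand setting of the counting is not given in the sources used here, reads of the partner cannot be told apart from theirs. Of the 6 members that rose in LNJ-OX, WRKY40 is among these 11.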

How the data were processed

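RNA was sequenced from 2 libraries each of LNJ-OX, jazD and Col-0, grouped by sample title. Per the submitters' processing notes the reads were handled with Trim Galore 0.6.3, HISAT2 2.1.0, HTSeq 0.9.1 and limma 3.38.3 on the genome build TAIR10. The authors deposited raw counts per gene and library, which were used, and 2 tables of their own limma comparisons (log2 fold changes, mean expression and p-values), which were not used. No read-level file was analysed. The number of unused columns of per-sample values was 0.

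Counts of all 6 libraries were fitted together with edgeR 4.0.16 in R 4.3.3 (filterByExpr, TMM factors, quasi-likelihood F-test, genotype as the only term), with Benjamini-Hochberg adjustment across the 21374 genes that entered the fit. A gene was called at adjusted p below 0.01 and a log2 fold change beyond 1 in either direction. The SE is the log2 fold change divided by the root of F. CPM uses TMM-scaled library sizes, and per-kilobase levels use RefSeq exon length (TAIR10.1, joined by locus identifier). Total counts were 10164591 to 15003290, and 3 counts corresponded to 0.189 to 0.315 CPM. The biological coefficient of variation was 0.232.

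All members may be named. Library values are given for members called in any comparison and, in each comparison, for the 4 largest changes in each direction among members with a mean of at least 1 CPM in the higher genotype and no overlap between libraries. Other members have values where their role is described, among them WRKY28, 33, 47, 50, 53, 57 and 70, and WRKY31 for its level, chosen after the values were seen. From the pathway lists, genes called in any comparison are named, with others chosen for their role. The members and lists were chosen with earlier results of these data known. Alternatives were other scaling factors, other filters, DESeq2 1.42.0, limma-voom 3.58.1, fits of 4 libraries, a replicate block, an adjusted p threshold of 0.05 and leaving out each library. The fitting code was tested on simulated data.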

Additional observations from a re-analysis of the deposited data

How the results depend on the processing

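For LNJ-OX against Col-0 the number of members called higher was 12 at adjusted p below 0.05, 2 with library totals as the scaling, 15 without a filter, 11 with DESeq2, 3 with limma-voom and 2 in the fit of the 4 libraries compared, beside 6, and 0 to 9 when 1 library was left out. The number called lower was 0 in all 15 alternatives. For jazD against Col-0 the number higher was 2 at adjusted p below 0.05, 3 without a filter, 2 with DESeq2 and 1 in the fit of 4 libraries, beside 0, with 0 to 1 when 1 library was left out, and the number lower was 1 at adjusted p below 0.05, without a filter and with DESeq2. For LNJ-OX against jazD the number higher was 4 at adjusted p below 0.05, 8 without a filter and 5 with DESeq2, beside 1, with 0 to 2 when 1 library was left out, and the number lower was 1 at adjusted p below 0.05, 2 without a filter and 2 with DESeq2, beside 0. The cause was not tested. Over all genes, 179 (0.837%) were called higher in LNJ-OX against Col-0, beside 467 with DESeq2 and 752 without a filter. At adjusted p below 0.05, 2.51% of all genes were higher and 2.20% lower in LNJ-OX against Col-0. These shares were 1.41% and 2.66% in jazD against Col-0, and 1.31% and 0.753% in LNJ-OX against jazD. The number called thus moved over all genes too, and the counts of members are no result about the family alone. For the other settings the shares over all genes are not given here.

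The sign of the log2 fold change differed from the reported one in at least 1 alternative fit for 8 of the 52 members tested in LNJ-OX against Col-0, 14 in jazD against Col-0 and 12 in LNJ-OX against jazD. Among members whose libraries did not overlap, 40, 33 and 37 in these comparisons, 0 did so. The median log2 fold change of the members was 0.75 to 1.05 for LNJ-OX, 0.26 to 0.43 for jazD and 0.36 to 0.63 for LNJ-OX against jazD over the 14 fits.

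Deviations of libraries with the same number from their genotype means correlated at 0.089 for LNJ-OX and Col-0, 0.059 for jazD and Col-0 and -0.003 for LNJ-OX and jazD, so the numbers were not taken as a pairing. With the number as a replicate block the members called higher were 9, 2 and 2 and the members called lower were 0, 1 and 1 for LNJ-OX and jazD against Col-0 and LNJ-OX against jazD.

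With 2 libraries per genotype the spread of any 1 gene is poorly known, and members below about 1 CPM rest on fewer than 20 counts in most libraries.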
